A study of Mus musculus and Homo sapiens
Mus musculus with 16 samples.

Results

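Interactions between pairs of genes that lie 110 to 690 kb apart on the same chromosome were examined in the fetal mouse forebrain by PLAC-seq for the histone mark H3K4me3. A listed interaction was taken as gene-to-gene when the starts of its bins lay 110 to 690 kb apart and each 10 kb bin held either end of at least 1 autosomal protein-coding gene (mm10 coordinates, RefSeq genes). The rule used positions only and no count. It found 6036 different bin pairs in at least 1 of the 4 libraries, of 58543 bin pairs listed in all. They joined 7604 different pairs of genes and held an end of 6026 of the 20665 genes. The 4 libraries comprised 2 of each embryonic stage, E12.5 and E16.5.

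PLAC-seq ligates DNA fragments that are neighbours in nuclear space and recovers the junctions that carry a chosen histone mark with an antibody. H3K4me3 marks active and poised promoters, and in embryonic tissue the promoters of developmental regulators often carry it together with repressive marks. Contacts between 2 gene regions are known to form where active promoters share a chromatin domain, where enhancers sit inside or beside another gene, and where silenced developmental genes gather.

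The labels give only tissue and stage for these samples. They name no genotype, treatment, litter or pooling, and the protocol text shared by the series describes cortex of C57BL/6J mice, so the strain of the fetal tissue is not clear from it. Where nothing says that 2 libraries came from separate litters, p-values measure the spread between these samples, which may be technical. The other 12 of the 16 samples in the series were not analysed here.

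Promoter sequences are shown for contacts that the results turn on, so that the partners can be compared by their letters. They are the 250 bases upstream of a RefSeq start (GRCm38.p6) inside the contacting bin, written 5′ to 3′ on the strand of the gene, with each CG dinucleotide in capitals. CG-rich promoters are those that H3K4me3 is known to mark most widely. The Tbr1 promoter (chr2:61804203-61804452, plus strand), in the contact with the largest rise at E16.5 among those named, had 5 CG dinucleotides. Ppp2r1b (chr9:50856674-50856923, plus strand) had 14 and its partner Sik2 (chr9:51009074-51009323, minus strand) had 35; their contact also rose. Pax6 (chr2:105668646-105668895, plus strand) had 15 and its partner Dcdc5 (chr2:106080749-106080998, plus strand) had 3; their contact fell. Gria2 (chr3:80802836-80803085, minus strand) had 19 and its partner Pdgfc (chr3:81036166-81036415, plus strand) had 3; their contact was listed at E16.5 alone. Irx2 (chr13:72628570-72628819, plus strand), in its contact with Irx1 at 660 kb, which fell, had 19. CG-rich promoters thus met both CG-rich and CG-poor ones among these contacts, which were chosen after their values were seen.
Tbr1: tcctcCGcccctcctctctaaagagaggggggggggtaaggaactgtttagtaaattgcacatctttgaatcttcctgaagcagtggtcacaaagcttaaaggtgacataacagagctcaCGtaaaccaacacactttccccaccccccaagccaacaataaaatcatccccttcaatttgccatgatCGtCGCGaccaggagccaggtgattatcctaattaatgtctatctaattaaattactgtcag
Ppp2r1b: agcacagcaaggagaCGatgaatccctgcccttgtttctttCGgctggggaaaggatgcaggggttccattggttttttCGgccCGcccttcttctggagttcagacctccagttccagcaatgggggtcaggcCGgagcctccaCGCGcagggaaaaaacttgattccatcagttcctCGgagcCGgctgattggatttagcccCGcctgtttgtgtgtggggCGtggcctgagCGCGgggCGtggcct
Sik2: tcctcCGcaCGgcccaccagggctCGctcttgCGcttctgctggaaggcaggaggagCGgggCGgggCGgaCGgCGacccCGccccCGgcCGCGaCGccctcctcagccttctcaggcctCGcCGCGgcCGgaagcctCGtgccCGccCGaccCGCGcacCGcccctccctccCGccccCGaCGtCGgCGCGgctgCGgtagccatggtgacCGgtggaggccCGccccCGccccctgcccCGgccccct
Pax6: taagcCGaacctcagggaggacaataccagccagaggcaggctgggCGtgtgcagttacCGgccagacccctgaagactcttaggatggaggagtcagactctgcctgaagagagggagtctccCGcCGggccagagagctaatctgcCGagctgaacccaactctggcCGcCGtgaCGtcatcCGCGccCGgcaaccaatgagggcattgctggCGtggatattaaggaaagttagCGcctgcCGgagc
Dcdc5: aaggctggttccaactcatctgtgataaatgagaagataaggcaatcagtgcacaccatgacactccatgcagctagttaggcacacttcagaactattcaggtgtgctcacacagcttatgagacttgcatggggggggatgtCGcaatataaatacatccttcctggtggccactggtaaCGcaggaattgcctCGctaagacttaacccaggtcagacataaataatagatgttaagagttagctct
Gria2: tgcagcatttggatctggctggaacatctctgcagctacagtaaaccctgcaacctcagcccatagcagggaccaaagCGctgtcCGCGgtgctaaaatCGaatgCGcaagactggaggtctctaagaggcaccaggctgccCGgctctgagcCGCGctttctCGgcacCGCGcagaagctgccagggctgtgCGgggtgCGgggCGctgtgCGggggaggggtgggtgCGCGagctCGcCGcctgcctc
Pdgfc: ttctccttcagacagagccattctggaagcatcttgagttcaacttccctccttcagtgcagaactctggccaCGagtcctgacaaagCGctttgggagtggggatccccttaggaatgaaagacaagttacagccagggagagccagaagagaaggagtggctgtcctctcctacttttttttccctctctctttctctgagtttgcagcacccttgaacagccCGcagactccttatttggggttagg
Irx2: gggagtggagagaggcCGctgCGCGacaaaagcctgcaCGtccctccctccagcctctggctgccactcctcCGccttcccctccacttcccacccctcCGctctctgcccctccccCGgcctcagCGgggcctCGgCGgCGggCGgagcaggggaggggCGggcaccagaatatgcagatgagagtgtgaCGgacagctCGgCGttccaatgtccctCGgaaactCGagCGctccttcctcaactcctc

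Lists at E16.5 were longer, with 35291 and 36794 interactions in its replicates, than at E12.5, with 18413 and 16075. Library depth is unknown, because the lists hold only interactions that passed the authors' threshold, and absence from a list does not show absence of contact. The tissue label was checked by the listed interactions at the bins of marker genes. The 6 forebrain markers together touched 183 to 224 listed interactions per library, mostly at Emx2 (65 to 99) and Sox2 (49 to 63). Neurod2 had 1 to 3 and Neurog2 had 4 to 8, fewer than the 15 to 20 at the mesenchymal marker Foxc2. Of 7 endothelial markers, 6 were at 0 in all 4 libraries, and the sum was 0 or 1. Of 6 microglial markers 3, of 4 erythroid markers 3 and of 8 mesenchymal markers 3 were at 0 in all libraries. The mesenchymal sum was 28 to 47, mostly at Foxc1 and Foxc2, and the part of such cells in any result was not tested.

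Gene-to-gene pairs made up a steady share of interactions at these distances, while their number followed the length of the lists. There were 1838 and 1728 in the E12.5 libraries and 3519 and 3965 in the E16.5 libraries. Their share of all interactions at 110 to 690 kb was 13.3% ± 0.717 (SD, n = 2) at E12.5 and 13.3% ± 0.823 (SD, n = 2) at E16.5 (exact permutation test, two-sided, p = 1). The number averaged 1783 ± 77.8 at E12.5 and 3742 ± 315 at E16.5 (SD, n = 2 each), with no overlap between stages, but an exact permutation test over 6 assignments cannot give a p below 0.333, which was its value. At the lower edge of the distance rule, 79, 72, 130 and 151 pairs lay at 110 kb, in the order of the E12.5 and then the E16.5 replicates, and 78, 67, 102 and 123 lay just outside it at 100 kb. At the upper edge, 2, 1, 7 and 14 lay at 690 kb and 3, 3, 10 and 10 at 700 kb.

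Gene-to-gene pairs were nearer to each other and less enriched than pairs of a gene bin with a bin outside gene ends. Their median distance was 230 kb in both E12.5 libraries and 260 kb in both E16.5 libraries, against 270 to 300 kb for gene-to-other pairs. Their median observed count over the authors' expected count was 3.48, 3.52, 3.46 and 3.55, below the 3.91 to 4.15 of gene-to-other pairs in every library. The read pairs behind a gene-to-gene pair numbered 21 or 22 at the median. These differences between classes were not tested.

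A core of 731 gene-to-gene bin pairs was listed in all 4 libraries, or 12.1% of the 6036. The same pattern held for 11.7% of all listed bin pairs, 13.5% of gene-to-other pairs and 9.56% of pairs of bins outside gene ends at these distances. The core held 1170 genes in 1058 bins. When all bin pairs of a gene pair were pooled, 1177 pairs of genes were listed in all 4 libraries, in the same or in different bins. A further 841 bin pairs were listed in both E16.5 libraries and no E12.5 library, 13.9% beside 15.2% of all listed bin pairs and 16.4% of gene-to-other pairs. Only 78 were listed in both E12.5 libraries and no E16.5 library, 1.29% beside 1.83% of all listed bin pairs and 1.76% of gene-to-other pairs. More than any other pattern, 3173 bin pairs (52.6%) appeared in 1 library.

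List length weighed on these counts. With every list shortened to the 16075 interactions of lowest FDR, 515 gene-to-gene pairs were in all 4 lists, 196 in those of E12.5 alone and 198 in those of E16.5 alone, so the surplus of E16.5 pairs was not present at equal length. Replicates of 1 stage shared 949 pairs at E12.5, or 51.6% of replicate 1 and 54.9% of replicate 2. At E16.5 they shared 2121, or 60.3% and 53.5%. Recurrent pairs were stronger: the median over bin pairs of the observed over expected ratio was 3.25 for those in 1 library, 3.46 for 2, 3.50 for 3 and 4.11 for 4 libraries, with 18, 20, 23 and 31.5 read pairs per library. Read pairs and ratio are part of what lets a pair be listed, so this is a description.

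The named strongest contacts are those of highest mean ratio among bins of 1 or 2 genes with an established name, each bin used once. They joined genes 330 to 680 kb apart, and 2 of the first 5 were of Iroquois genes. The highest mean ratio of the 731 lay outside that rule and was chosen after its values were seen: 1600014C23Rik with Vegfa at 300 kb, with 14.3, 17.0, 19.8 and 18.8. Strength is given here as the ratio of observed to expected read pairs in each library, in the order E12.5 replicates 1 and 2, then E16.5 replicates 1 and 2. Commd9, which encodes a COMM-domain protein of endosomal sorting, met Fjx1, which encodes a secreted regulator of tissue polarity, over 550 kb (chr2:101900001-101910000 with chr2:102450001-102460000). That contact had ratios of 13.3, 14.5, 17.9 and 19.1 from 52, 45, 73 and 66 read pairs. The E16.5 ratios were both above the E12.5 ratios, while the difference in scaled read pairs was 0.16 on the log2 scale with an adjusted p of 0.744 (edgeR quasi-likelihood, Benjamini-Hochberg).

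Irx3 and Irx5, homeobox genes that pattern the neural tube, met over 560 kb (chr8:91800001-91810000 with chr8:92360001-92370000) with ratios of 12.0, 12.9, 13.9 and 15.6. Their paralogs Irx1 and Irx2 met over 670 kb (chr13:71960001-71970000 with chr13:72630001-72640000) with ratios of 16.3, 10.2, 11.3 and 9.58. The Irx3 bin held the start of Irx3. In the Irx1 and Irx2 contact neither bin held a promoter start of the reference table, while the bin beside the latter holds the Irx2 promoter printed above.

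Other contacts of this group were of various genes. Hunk, a protein kinase gene, and Mis18a, a factor of centromere assembly, had ratios of 7.96, 14.7, 13.2 and 18.6 over 330 kb. Mroh5 and Adgrb1, an adhesion receptor gene of brain synapses, had ratios of 10.2, 9.73, 16.4 and 16.3 over 680 kb, with both E16.5 libraries above both E12.5 libraries. Sulf2, which edits heparan sulfate outside the cell, and Prex1, an activator of Rac, had ratios of 10.4, 9.59, 11.9 and 14.1 over 410 kb. Hs3st3b1 and Hs3st3a1, neighbouring genes for heparan sulfate sulfotransferases, had ratios of 11.4, 8.26, 9.47 and 10.1 over 510 kb, with overlapping stages. The others were the ends of Ebf1, Pfdn4 with Dok5, Crmp1 with Stk32b, Slc4a1ap with Fosl2, and Snx19 with Adamts8.

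**Figure D1:**
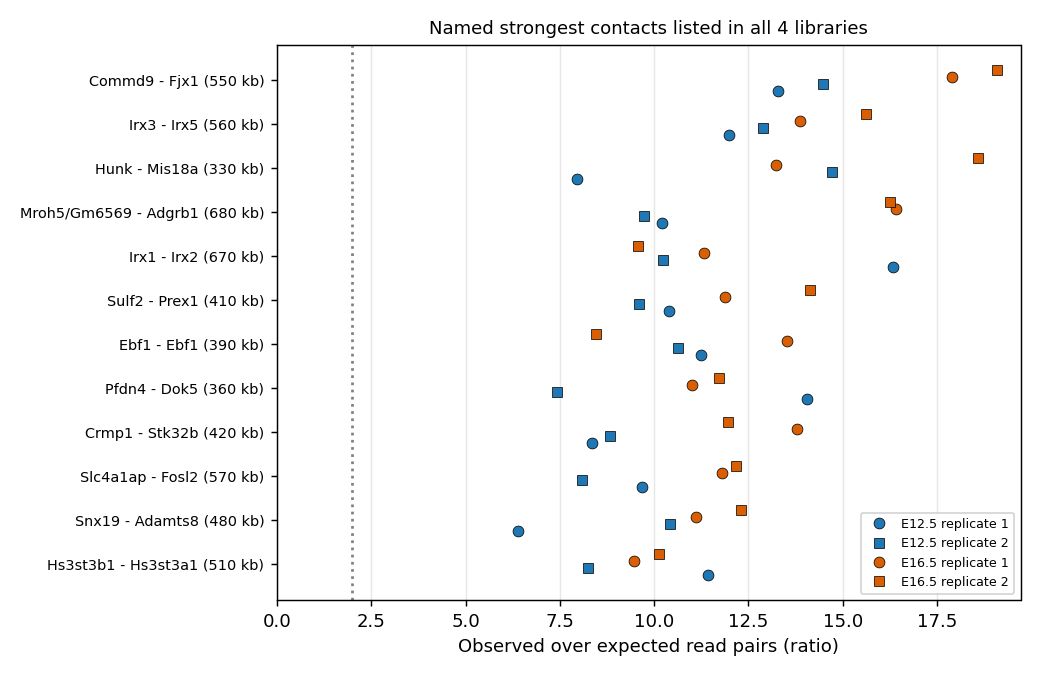
Ratio of observed to expected read pairs (x axis) for the 12 named strongest gene-to-gene contacts listed in all 4 libraries (bins of 1 or 2 genes, each bin used once), each point 1 library, blue for E12.5 and orange for E16.5. The dotted line marks a ratio of 2, the lowest of a listed interaction; Commd9 with Fjx1 reached 19.1, and the stages overlapped in contacts such as Hs3st3b1 with Hs3st3a1.

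Some recurrent contacts reached the upper end of the distance range. Acaca and Tada2a in 1 bin met Mrm1 at 690 kb with 9, 13, 11 and 9 read pairs, and a promoter start lay in both bins. Pax1 and Foxa2, a paraxial and a floor plate regulator, met at 680 kb. Enox1 and Dnajc15 met at 670 kb with 14, 14, 23 and 26 read pairs. Leprotl1 and Dusp4, which encodes a phosphatase of MAP kinases, also met at 670 kb, with 12, 21, 33 and 23 read pairs. Counts this low carry wide counting error, and no stage difference in the Acaca, Enox1 or Leprotl1 contacts passed the test (adjusted p = 0.537, 0.449 and 0.468, edgeR with Benjamini-Hochberg).

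A few bins had many recurrent partners. Of the 1058 bins in the core, 786 had 1 partner, 258 had 2 to 4 and 14 had 5 or more. The Smug1 bin (chr15:103160001-103170000), which holds the start of a uracil DNA glycosylase gene, had 7 partners in all 4 libraries, and every one of the 7 bins held Hoxc genes, from Hoxc4 at 130 kb to Hoxc11 at 210 kb. The strongest of them by read pairs was the bin of Hoxc4, Hoxc5 and Hoxc6, with 67, 72, 95 and 76. Hoxc genes specify position along the body axis and are silent in normal forebrain; these data hold no expression values for them. 1600014C23Rik (chr17:45730001-45740000) also had 7 partners, and its contact with Vegfa, which encodes a vascular growth factor, had 163, 200, 243 and 233 read pairs at 300 kb. Grm4, a metabotropic glutamate receptor gene, had 6 partners and so did Ube2q1, a ubiquitin-conjugating enzyme gene, whose 6 included Efna3, Zbtb7b and Shc1.

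When bins that share a contact were joined, the core fell into 362 networks, of which 199 were a single pair and 27 had 5 or more pairs. The largest spanned chr2:30410001-30960000 and linked 10 bins by 17 contacts, with 4 closed triangles of the 10 found in all. It held Crat and Ptpa, Ier5l, Ntmt1, Asb6, Ptges and Tor1b; Ier5l met the bin of Ntmt1 with 59, 86, 111 and 93 read pairs at 330 kb. Another joined Fgf8, a signal of forebrain and midbrain organisers, to Lbx1, Btrc and Fbxw4. Lbx1, a homeobox gene of hindbrain and spinal cord, met the bin of Fgf8 and Npm3 with 35, 38, 34 and 39 read pairs at 510 kb. Neighbouring bin pairs of 1 locus are not independent contacts.

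Of all 411351 possible pairs of gene-end bins at 110 to 690 kb, 1.47% were listed in some library and 0.178% in all 4. The share fell with distance, from 2.76% at 110 to 200 kb to 1.77% at 210 to 400 kb and 0.707% at 410 to 690 kb. Partners had fewer gene ends between them than possible pairs at the same distance. The median number of gene-end bins between them is given for possible pairs, listed pairs and pairs in all 4 libraries, in that order. At 110 to 200 kb, with 319 of the 731 recurrent pairs, it was 5, 4 and 3. At 210 to 400 kb it was 10, 5 and 3. At 410 to 690 kb it was 18, 6 and 4. No gene-end bin lay in between in 11.7% of the recurrent pairs at 210 to 400 kb, against 0.868% of possible pairs. Distance and gene density were not matched beyond these classes.

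The letters of the promoters differed as well. Of possible pairs with a promoter start in both bins, 4.38% were listed where both bins held a CG-rich promoter (GC at least 50% and a CG observed over expected ratio of at least 0.6), 2.17% where 1 did and 0.492% where neither did. For listing in all 4 libraries the shares were 0.588%, 0.248% and 0.0367%. CG-rich promoters were 62.3% of the 4524 in bins of gene-to-gene pairs and 42.7% of the 20085 in the table. The antibody selects H3K4me3, and the level of that mark at each bin was not analysed here, so its part in these shares was not tested.

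Motifs were searched on both strands of the 250 bases upstream of each start, and a match is a description of letters only. The core motif of CTCF, searched as CC, any 3 bases, AGG, any base and GGC, was in 5.35% of promoters in bins of gene-to-gene pairs and 3.63% of all promoters. Pairs were listed in 1.78% of cases where neither bin held it and in 3.70% where 1 did; only 205 possible pairs had it in both, and 8 were listed. The TATA motif TATAAA was in 6.03% and 11.7% respectively, and the E-box CAGATG in 9.97% of promoters in bins of gene-to-gene pairs and 12.2% of those in all gene-end bins. Matches of different motifs were counted apart, whether or not they overlapped. No motif share was split into CG-rich and other promoters, so the part of base content in these shares was not tested. Of the printed promoters, that of Dcdc5 held TATAAA, and those of Irx2 and Dcdc5 held CAGATG.

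Strand order of the partners showed no lean. In the 1599 pairs compared, the placed starts of each bin all lay on 1 strand, and pairs of the ends of 1 gene were left out. Of these pairs, 50.2% had partners on the same strand, 24.8% faced each other and 25.1% faced away. Names were compared by symbol stem, the letters before the first digit (at least 3, with common stems such as Zfp left out). The stem misses some relatives, such as Hs3st3b1 with Hs3st3a1, and its counts are of shared stems, not of paralogs. Of 10180 possible pairs whose bins hold genes of the same stem, 50 (0.491%) were listed, below the 1.47% of all possible pairs, and 11 of the 50 were in all 4 libraries. Of these 11, 4 joined Irx3 with Irx5, 4 joined Irx1 with Irx2, and 1 each joined Irx2 with Irx4, Fabp5 with Fabp12, and Eif4a1 with Eif5a.

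The 2 ends of 1 long gene were listed together at a higher share. Of 2049 possible bin pairs that hold both ends of 1 gene, 239 (11.7%) were listed and 38 (1.85%) were in all 4 libraries. Meis2, a homeobox gene of the striatal primordium, had the highest read pairs of the named ones, with 102, 91, 151 and 155 at 200 kb. Nxn, a redox regulator of Wnt signalling, had 97, 90, 96 and 90 at 140 kb. Others were Man1c1, Zbtb16, Abtb2, Meis1, Rnf150 and App. Of these 8, the amyloid precursor gene App alone passed the stage test, with 29, 25, 62 and 56 read pairs at 220 kb. It rose by 0.76 on the log2 scale (SE 0.25, adjusted p = 0.0411, edgeR with Benjamini-Hochberg). App did not pass in the same test without TMM (adjusted p = 0.0567) or with DESeq2 (adjusted p = 0.307). Outside these 8, the ends of Pitpnc1 and of Maml3 also rose, by 1.25 and 1.03 (adjusted p = 0.00202 and 0.0158, edgeR with Benjamini-Hochberg).

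**Figure D2:**
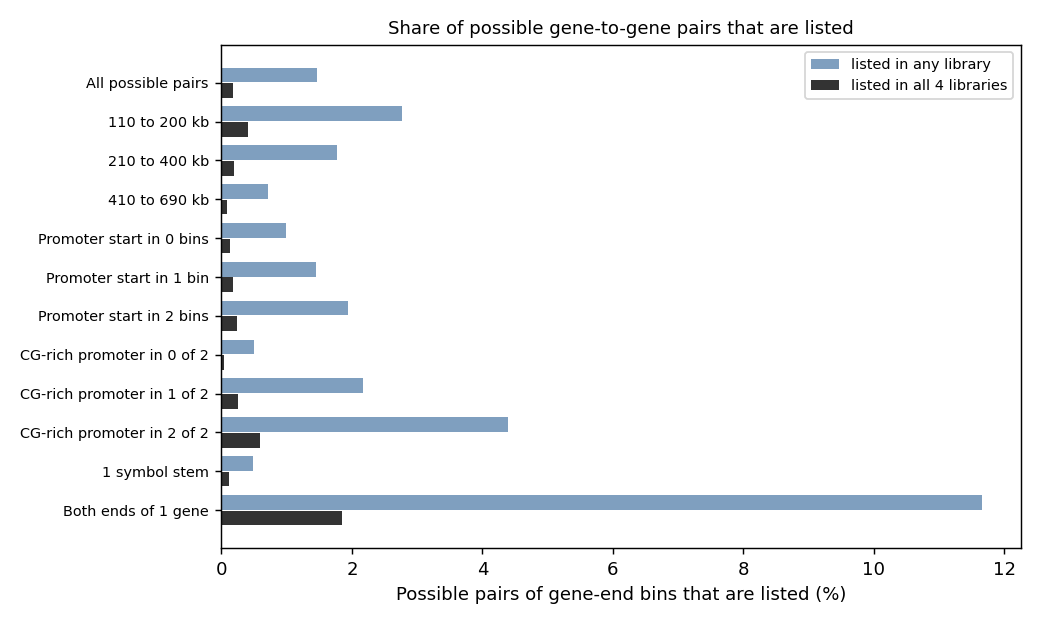
Share of possible pairs of gene-end bins at 110 to 690 kb that were listed (x axis, percent), in any library (blue) and in all 4 (black), by class of pair. The share was 11.7% for the ends of 1 gene and 4.38% where both bins held a CG-rich promoter, beside 1.47% for all possible pairs.

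Contact strength, here as read pairs, was compared between stages for the 731 gene-to-gene pairs with a count in every library. The fit took all 6875 bin pairs listed in all 4. The antibody selects H3K4me3. The level of that mark was not analysed at either stage, so its part in any change of read pairs was not tested. Read pairs rose at E16.5 in 29 (3.97%; 5.88% of all bin pairs in the fit) and fell in 24 (3.28%; 4.58% in the fit), at an adjusted p under 0.05 (edgeR quasi-likelihood, Benjamini-Hochberg). Both shares were below the background. The median log2 change (E16.5 minus E12.5) over the 731 was -0.01. After scaling, 185 (25.3%; 26.8% in the fit) had each E16.5 library above each E12.5 library, and 192 (26.3%; 27.2% in the fit) had each E16.5 library below. The smallest change that passed was 0.67 on the log2 scale.

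The largest rise among contacts that passed was at Tbr1, the T-box factor of early glutamatergic cortical neurons. The bin of Psmd14 and Tbr1 (chr2:61800001-61810000), with the Tbr1 promoter printed above, met the bin of an end of Tank (chr2:61650001-61660000), an adaptor of NF-kB signalling, at 150 kb. Its read pairs numbered 60 and 36 in the E12.5 replicates and 187 and 133 in the E16.5 replicates, a rise of 1.37 on the log2 scale (SE 0.22, adjusted p = 3.49e-05, edgeR with Benjamini-Hochberg) or 2.58-fold. Its ratios of observed to expected were 4.84, 3.39, 6.18 and 6.22, with no overlap between the stages. Scaled read pairs without overlap were a condition for being named among the rises. With the authors' expected count as an offset the rise was 0.58 and did not pass (adjusted p = 0.234, edgeR with Benjamini-Hochberg). Over the 12 alternatives run the log2 change was 0.58 to 1.75 and the adjusted p was 1.15e-10 to 0.234, with 11 of the 12 passing. The next bin, which also holds an end of Tbr1, had 44, 36, 121 and 86 read pairs with Tank.

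The other named rises were smaller. Ppp2r1b, a scaffold subunit of protein phosphatase 2A, and the kinase gene Sik2 had 22, 24, 74 and 67 read pairs at 150 kb, 2.38-fold higher after scaling. Hs1bp3 and Rhob, a small GTPase gene, had 24, 20, 68 and 59 at 180 kb. Cacna1i, a T-type calcium channel gene, and Fam83f had 15, 14, 48 and 35 at 390 kb. Contacts were named here only if each E16.5 library was above each E12.5 library after scaling, so that order is no added evidence. Kif26a with Tmem179, a kinesin-family gene with a membrane protein gene, had 25, 26, 65 and 74 at 370 kb. Mycn, a MYC-family gene of proliferating progenitors, had 26, 17, 51 and 59 read pairs with its neighbour Ddx1, an RNA helicase gene, at 280 kb. The ends of Pitpnc1, Sh3rf3 with Septin10, Hnrnpll with Galm, and Saraf with Dusp4 completed the 10, with folds of 2.37, 2.18, 1.96 and 2.13.

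Among the falls were several regulators of early patterning and progenitors. Sox1, a factor of neural progenitors, met Spaca7, a sperm acrosome gene, at 180 kb with 55, 72, 37 and 38 read pairs. It fell by 1.12 on the log2 scale (SE 0.24, adjusted p = 0.00118, edgeR with Benjamini-Hochberg). Pax6, a regulator of cortical radial glia, met Dcdc5, a doublecortin-domain gene, at 420 kb (chr2:105660001-105670000 with chr2:106080001-106090000) with 38, 28, 23 and 16. Six3, a factor of the anterior forebrain, met an end of Camkmt at 160 kb with 44, 57, 36 and 25. That every E16.5 library was below every E12.5 library after scaling was a condition for being named. In all 3 contacts it also held before scaling.

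The Iroquois contacts also fell in part. Irx3 and Irx5 had 62, 83, 54 and 37 read pairs at 550 kb, a fall of 1.04 (SE 0.24, adjusted p = 0.00202, edgeR with Benjamini-Hochberg). Irx1 and Irx2 had 55, 47, 44 and 22 at 660 kb, a fall of 0.99 (SE 0.26, adjusted p = 0.0072). Of the 4 bin pairs of Irx3 with Irx5, 2 passed, and the strongest of them by ratio, at 560 kb, did not (56, 61, 59 and 49 read pairs, log2 change -0.48, adjusted p = 0.195). Likewise 2 of the 4 of Irx1 with Irx2 passed. Pax1 with Foxa2 had 24, 21, 14 and 10 read pairs, and Ccnd1, the cyclin D1 gene, had 32, 23, 17 and 11 with Smim38. The bin of Hoxc10 and Hoxc9 was the sole 1 of the 7 Smug1 contacts that passed, with 38, 40, 26 and 29. Vezf1 with Cuedc1 and Mrps23, and Copa and Pex19 with Igsf8, completed the 10. Of the 53 contacts that passed in either direction, others were chosen for mention after their values were seen. Sesn1 and Armc2 each met the forkhead gene Foxo3 and rose, while Afg1l with Nr2e1, Eno4 with Vax1, and Ermard with Dll1, which encodes a Notch ligand, fell.

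**Figure D3:**
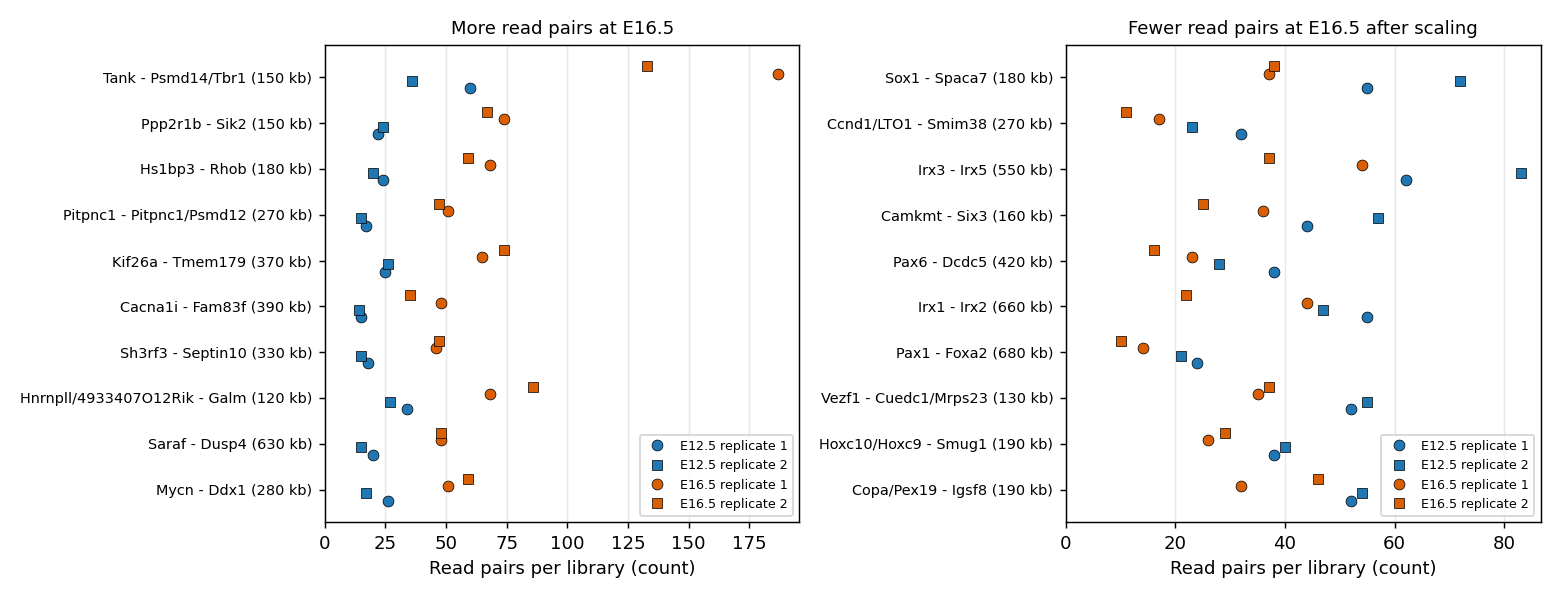
Read pairs per library (x axis) for the 10 named contacts that rose at E16.5 (left) and the 10 that fell after scaling (right), each point 1 library, blue for E12.5 and orange for E16.5. Tank with Psmd14 and Tbr1 went from 60 and 36 to 187 and 133, and Sox1 with Spaca7 from 55 and 72 to 37 and 38.

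These calls rested on few libraries and on how the counts were modelled. Without E12.5 replicate 1 there were 10 rises and 6 falls, without E12.5 replicate 2 there were 5 and 9, without E16.5 replicate 1 there were 23 and 11, and without E16.5 replicate 2 there were 18 and 9. DESeq2 called 2 rises (Tank with Psmd14 and Tbr1, and Ppp2r1b with Sik2) and 0 falls, with 26 rises and 19 falls at an unadjusted p under 0.05. It gave no adjusted p to 359 of the 731 contacts, 8 of the 29 rises and 6 of the 24 falls among them. With the authors' expected count as an offset, edgeR called 1 rise (the ends of Pitpnc1) and 0 falls, with 84 rises and 8 falls unadjusted, and the median of all contacts moved from -0.01 to 0.12.

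By count, a larger share of developmental regulators than of all genes held recurrent gene-to-gene contacts. Of 68 patterning genes of regions outside the telencephalon, 24 (35.3%) had an end in a contact listed in all 4 libraries, against 5.66% of all autosomal protein-coding genes. The figure was 7 of 27 (25.9%) for genes of the ganglionic eminences and GABAergic neurons and 12 of 69 (17.4%) for forebrain transcription factors. It was 5 of 30 (16.7%) for cell cycle and timing genes, 5 of 49 (10.2%) for synaptic genes and 5 of 50 (10.0%) for ribosomal, proteasome and respiratory genes. It was 2 of 50 (4.00%) for axon and neurite genes and 1 of 25 (4.00%) for markers of other cell types, Foxc2 being the 1. The lists were not tested against other genes, and clustered genes share bins. The 25 patterning contacts came from few loci, since 8 were of Irx1 with Irx2 or Irx3 with Irx5, 7 joined Hoxc genes to Smug1, 4 joined Hoxb genes to Copz2 and 2 joined Hoxa genes to Skap2.

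The forebrain transcription factors had 20 tested contacts, of which 2 rose, 6 fell and 12 did not pass, with a median log2 change of -0.45 beside -0.01 over all 6875. Both rises were Tank with bins of Tbr1. The falls were at Sox1 and Six3, 2 contacts each, and at Pax6 and Nr2e1. The 6 falls became 3 without E12.5 replicate 1, 1 without E12.5 replicate 2, and 3 without either E16.5 replicate; without E12.5 replicate 2 there was 1 rise. DESeq2 called 1 rise and 0 falls among the 15 of the 20 to which it gave an adjusted p. Emx2, a cortical patterning factor, met Rab11fip2 at 480 kb with 110, 77, 88 and 77 read pairs and did not pass (log2 change -0.54, adjusted p = 0.0912, edgeR with Benjamini-Hochberg). Eomes, the factor of intermediate progenitors, met the bin of Azi2 and Zcwpw2 at 440 kb with 28, 21, 34 and 35.

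The 25 patterning contacts, from the few loci given above, had 5 falls and no rise, with a median of -0.41 beside -0.01 over all 6875. Of the 25, 22 lay below 0, and 17 did with the authors' expected count as an offset. The falls became 1 without E12.5 replicate 1, 3 without E12.5 replicate 2, and 4 and 1 when replicate 1 or 2 of E16.5 was left out. DESeq2 called 0 among the 15 of the 25 with an adjusted p. With the authors' expected count as an offset the medians were 0.01 for the forebrain factors and -0.10 for the patterning genes, beside 0.12 over all contacts, and no contact of either list passed. Of the 10 contacts of ganglionic eminence genes 2 fell, both at Six3, which that list shares with the forebrain factors; without E12.5 replicate 2 none did, and without E16.5 replicate 1 there was 1. Dlx2, a homeobox gene of GABAergic precursors, met Dync1i2 with 25, 29, 30 and 30 read pairs at 280 kb, and Sp9 met Sp3 with 36, 24, 43 and 38 at 290 kb. Neither passed (adjusted p = 0.698 and 0.912). Of 6 synaptic contacts 1 rose, that of the bin of Pih1d1 and Slc17a7, the gene of vesicular glutamate transporter VGLUT1, with Trpm4. It had 35, 28, 73 and 62 read pairs and an adjusted p of 0.0414 (edgeR with Benjamini-Hochberg). Without TMM the adjusted p was 0.0577 in the same test. Nor did this contact pass with DESeq2, with the offset or with a quasi-dispersion of at least 1. Of 6 cell cycle contacts 2 rose, both Mycn with Ddx1, and 1 fell, at Ccnd1. None of these 6 passed with DESeq2, which gave 3 an adjusted p, or with the offset. Of the 2 axon contacts, at Unc5c and Plxna1, and the 3 of Foxc2, none passed.

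**Figure D4:**
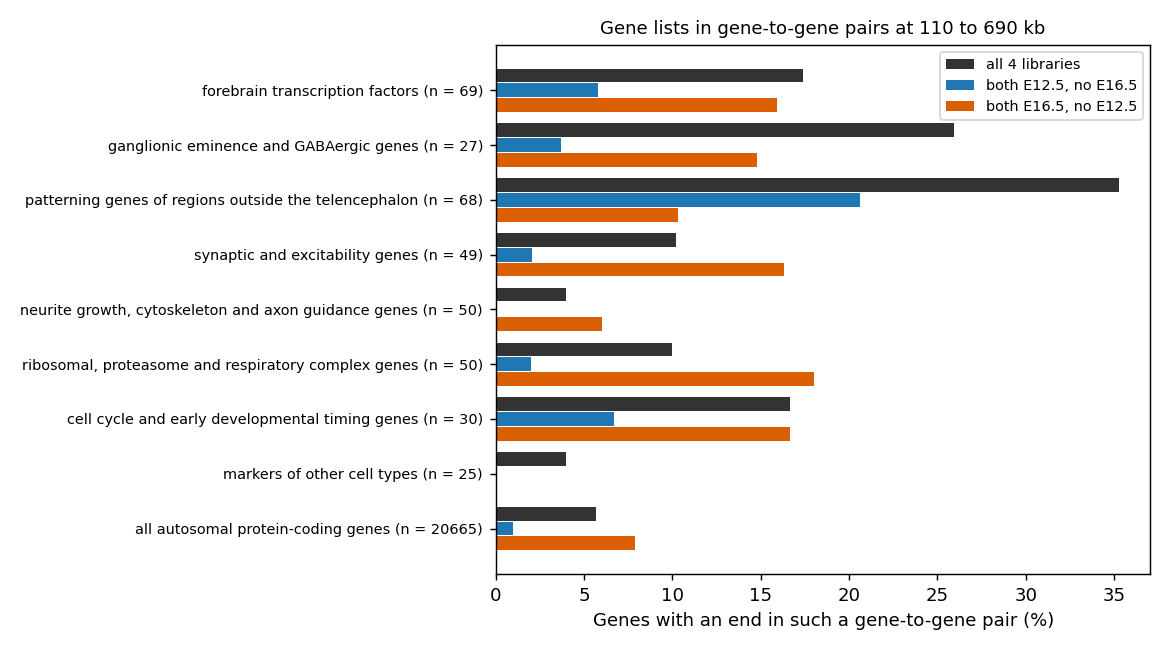
Share of the genes of each list (x axis, percent) with an end in a gene-to-gene pair listed in all 4 libraries (black), in both E12.5 and no E16.5 library (blue) or in both E16.5 and no E12.5 library (orange). Patterning genes of regions outside the telencephalon reached 35.3% and 20.6% in the first and second class, beside 5.66% and 0.973% of all genes. Those patterning genes lay in 25 and 9 bin pairs, and genes that share a bin were each counted.

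Pairs listed at E12.5 alone were few and mostly had a listed neighbour at the other stage. Of the 78, 66 had an interaction within 1 bin of both ends in an E16.5 library and 12 had none, and 70 stayed in both E12.5 lists at equal length. By read pairs the first was Rcor2, a corepressor gene of neural progenitors, with Rtn3, with 67 and 76 in the E12.5 replicates at 160 kb. Polr2a, the gene of the largest RNA polymerase II subunit, met Kctd11 with 51 and 52 at 120 kb and had no listing within 1 bin at E16.5. Histone genes also met each other, H1f3 and H4c6 with H2bc3 and H3c3 at 190 kb, with 56 and 42.

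Of the 68 patterning genes, 14 (20.6%) were in pairs listed at E12.5 alone, against 0.973% of all genes. These 14 genes came from 9 bin pairs, and genes that share a bin were each counted. The pairs included Hoxb13 with Hoxb4 at 120 kb (44 and 36 read pairs), with no listing within 1 bin at E16.5. Others were Pax2 with Lbx1 at 490 kb (28 and 29) and Pax7 with Aldh4a1 at 190 kb (19 and 24). Pax2 and Pax7 pattern the midbrain, hindbrain and spinal cord. Sox21, a progenitor factor, met Abcc4 with 38 and 35 at 250 kb, and Msi1, which encodes an RNA-binding protein of neural stem cells, met Srsf9 with 40 and 47 at 130 kb.

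Pairs listed at E16.5 alone often had no listed neighbour in the shorter E12.5 lists. Of the 841, 527 (62.7%) had no interaction within 1 bin in an E12.5 library, but 188 were in both E16.5 lists at equal length. Gria2, an AMPA receptor subunit gene, met Pdgfc, a growth factor gene, at 230 kb (chr3:80800001-80810000 with chr3:81030001-81040000) with 56 and 70 read pairs in the E16.5 replicates. Both bins held the promoters printed above, and no E12.5 library listed a pair within 1 bin. Neurod6, a factor of cortical projection neurons, met Itprid1 with 94 and 34 at 120 kb, so its replicates differed widely. Emx1, a dorsal forebrain factor, met Rab11fip5 with 49 and 53 at 190 kb, and that pair had a listing nearby at E12.5.

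Listings at E16.5 alone also touched the bins of Tbr1 and of Dlx genes. The Psmd14 and Tbr1 bin was listed with Slc4a10 (15 and 14 read pairs at 520 kb), Dpp4 (39 and 24 at 530 kb) and Gcg (15 and 16 at 670 kb) in both E16.5 libraries and no E12.5 library. Dlx6 met Sem1 with 42 and 40 at 290 kb, and Dlx5 met it with 38 and 28 at 300 kb; both are homeobox genes of GABAergic neurons. Of these 5 pairs, that of Dlx5 with Sem1 had an interaction within 1 bin in an E12.5 library, and that of the Psmd14 and Tbr1 bin with Dpp4 was the 1 in both E16.5 lists at equal length. Of the fixed lists, the share of genes in pairs listed at E16.5 alone was 18.0% for ribosomal, proteasome and respiratory genes (9 of 50), 16.7% for cell cycle genes (5 of 30) and 16.3% for synaptic genes (8 of 49). It was 15.9% for forebrain factors (11 of 69), 14.8% for ganglionic eminence genes (4 of 27) and 10.3% for patterning genes (7 of 68). It was 6.00% for axon genes (3 of 50) and 0 of 25 for markers of other cell types, against 7.88% of all genes. Homer1, a scaffold gene of excitatory synapses, met Thbs4 with 23 and 26 at 550 kb. The pairs with the most read pairs were Cars2 and Ing1 with Arhgef7 (81 and 75 at 170 kb) and Gnb2 with Nyap1 and Tsc22d4 (78 and 74 at 210 kb). Both of these had a listing within 1 bin at E12.5. Whether any pair listed at 1 stage differed between stages was not tested, since unlisted pairs have no count.

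**Figure D5:**
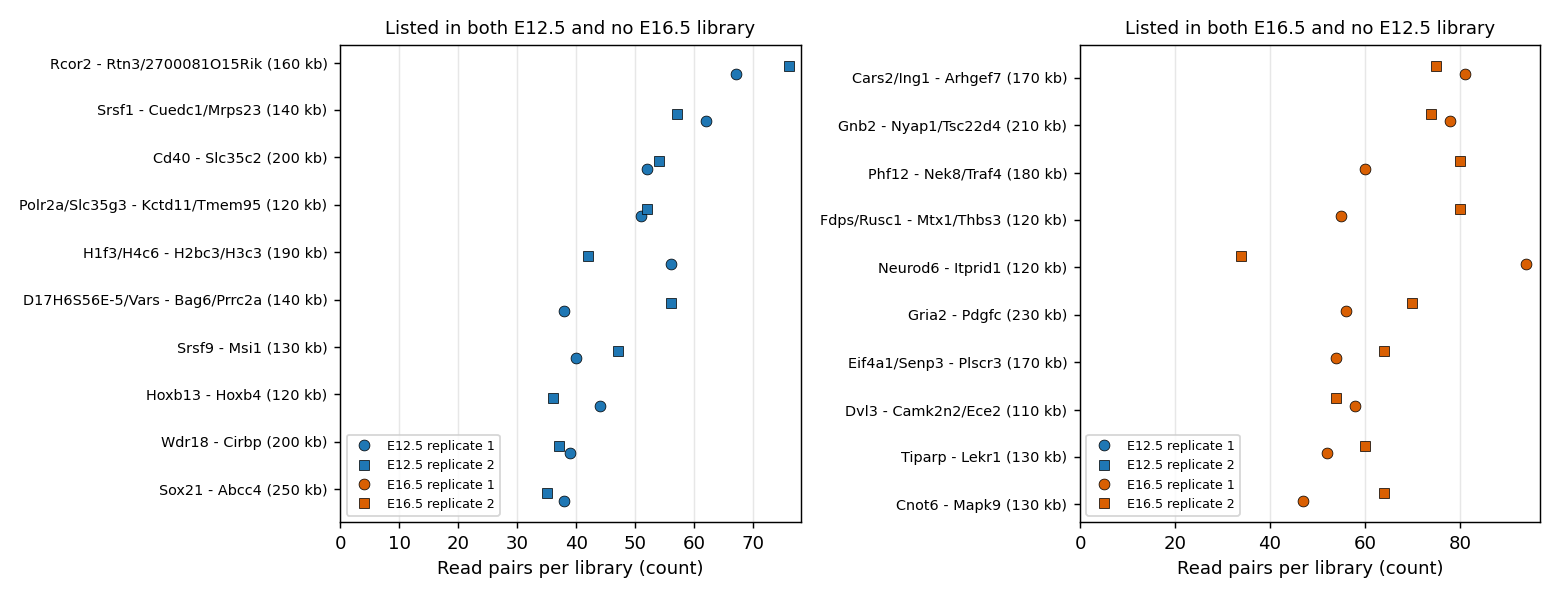
Read pairs per library (x axis) for the 10 named pairs listed in both E12.5 and no E16.5 library (left, blue) and the 10 listed in both E16.5 and no E12.5 library (right, orange), each point 1 library. Rcor2 with Rtn3 had 67 and 76; Neurod6 with Itprid1 had 94 and 34, the widest gap between replicates shown.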

How the data were processed

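H3K4me3 PLAC-seq of mouse fetal forebrain was analysed in 4 libraries, of which 2 were of each stage. Formaldehyde-fixed frozen tissue was cut with MboI, ligated and enriched with an antibody to H3K4me3, per the labels' protocols. The tools were BWA and SAMtools and the build was mm10, per the submitters' processing notes; tool versions and the caller of interactions were also not given in the sources used here. The deposited tables, per the file headers, give for each interaction of 10 kb bins, called in each library, a count of read pairs, an expected count (a signal from their model, whose corrections are not stated), an FDR (a q-value), cluster labels and the −log10 p of the cluster. In the deposited files every FDR was under 0.01, every observed over expected ratio was at least 2, and pairs lay 20 to 1000 kb apart on 19 autosomes.

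Gene ends were taken from RefSeq's genes of GRCm38.p6, which shares its primary sequence with mm10: 20665 autosomal protein-coding genes in 30812 gene-end bins. The ends of genes are not all promoters: 14363 of these bins held a promoter start of the RefSeq promoter table, which covers 16457 of the genes. A bin that holds several genes does not separate them. Coordinates are 1-based.

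Strength was tested on counts as deposited with edgeR 4.0.16 in R 4.3.3 (TMM, robust quasi-likelihood, stage as the sole term, Benjamini-Hochberg at 0.05 over all 6875 bin pairs listed in all 4 libraries). Contacts absent from any list were thus outside the test. SEs were computed as log2 change over the square root of F. Stage shares were compared with exact permutation tests over 6 assignments. DESeq2 1.42.0 and the other alternatives are in the closing section; tables were made with Python 3.11.15.

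Named contacts join bins of 1 or 2 protein-coding genes, at least 1 with a name other than a predicted one, each bin used once per group: the 12 with the highest geometric mean ratio, the 8 longest, the 10 per stage-restricted class with the most read pairs, the 10 per direction with the smallest p that moved the same way in every library, same-stem pairs and the ends of 1 gene, and up to 4 per gene list. The 8 gene lists held 375 symbols, of which 366 were matched on autosomes. The members, lists and rules were chosen with earlier results of these data known. Some items that the rule would name are not reported here.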

Additional observations from a re-analysis of the deposited data

How the results depend on the processing

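Gene-to-gene pairs in all 4 libraries numbered 731, and 352 at an FDR under 0.0001, 57 with cluster summits alone and 310 with a promoter start, alternative starts included, in both bins (an alternative chosen after seeing the data); leaving out 1 library gave 790 to 1008. The 78 pairs of both E12.5 and no E16.5 libraries became 196 at equal list length, 45 at the stricter FDR, 43 with summits, 26 with promoter starts and 137 to 430 with 1 library left out. The 841 of both E16.5 and no E12.5 libraries became 198, 464, 211, 379 and 1113 to 2324. The gene-to-gene share of 13.3% became 15.9% with summits and 5.81% with promoter starts. Of 29 rises and 24 falls in strength, DESeq2 kept counts of 2 and 0, the expected-count offset 1 and 0, and leaving out 1 library gave 5 to 23 and 6 to 11. The count of rises was 24 to 32 and of falls 22 to 29 without TMM, with TMM within 10 distance bins, a mean count of at least 20, a fit on this distance range alone and a quasi-dispersion of at least 1 (the last chosen after seeing the data). The replicate number as a block gave 42 rises and 36 falls; same-numbered libraries correlated at 0.126 in their deviations, and with 2 pairs the numbers were not taken to pair the samples. Each of the 29 rises and 24 falls had each E16.5 library beyond each E12.5 library after scaling. Leaving out 1 library can hardly reverse such an order. None of the 26 named contacts that passed changed direction under an alternative run, which with 1 library left out is no added evidence. Of the 39 that did not pass, 15 changed sign with the offset, such as Emx2 with Rab11fip2 (0.35) and Irx3 with Irx5 at 560 kb (0.24), 2 with TMM within distance bins, 1 with the fit on this distance range alone and 3 to 6 with 1 library left out, and none of these passed. Of the 26, 18 were lost with DESeq2, which gave 6 others no adjusted p, 25 with the offset and 9 to 17 with 1 library left out. Depth limits low counts most: the median pair had 21 or 22 read pairs. The cause of these changes was not tested, beyond fewer samples where a library was left out.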
